A study of Mus musculus with 10 samples.

Results

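The 9 genes described here encode goblet cell factors and proteins of intestinal mucus: Atoh1, Spdef, Muc2, Fcgbp, Zg16, Tff3, Spink4, Agr2 and Sytl2. They were listed by name, for their roles, with earlier results of these data known, and each is represented by its brightest probe set among those that the platform annotation gives a single gene symbol. All 9 of 9 were measured, out of 22180 genes on the array. Only Muc2 had a second probe set.

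Goblet cells are secretory cells of the gut epithelium that store mucin in granules and release it to build the mucus layer over the surface. Progenitors that escape Notch signalling express the transcription factor ATOH1 and enter the secretory lineage, and SPDEF acts after it in goblet and Paneth cell maturation. MUC2 is the gel-forming mucin of the gut, and it is folded, linked by disulfide bonds and heavily glycosylated before it is packed. Phosphatidylcholine (PC) is the main phospholipid of cell membranes and is also found in the mucus of the gut.

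Jejunum from 2 groups of mice was compared. Fed Knockout mice were Pcyt1aLoxP/LoxP;VilCreERT2, with a tamoxifen-inducible Cre recombinase driven by villin, a gene expressed in intestinal epithelial cells. Fed Control mice were Pcyt1aLoxP/LoxP without the Cre. Pcyt1a encodes CCT alpha, which catalyses the rate-limiting reaction in making PC from choline. In both groups the mice were females aged 10 to 12 weeks. They took tamoxifen for 5 days, ate a high-fat diet for 3 days, fasted overnight, and ate the same diet again for 2 hours before 3 cm of the jejunum was taken. Each group has 5 arrays. The labels do not say outright that each array is a separate animal, so the p-values cover the spread among arrays, part of which may be technical. Only the knockout group carried Cre, so active Cre and loss of Pcyt1a cannot be told apart.

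The targeted gene had lower values on the arrays labelled as knockout. Pcyt1a intensity was 151.4 to 202.5 on Fed Knockout arrays and 493.5 to 727.3 on Fed Control arrays, a difference of -1.71 on the log2 scale (SE 0.11, limma adjusted p = 6.51e-05). The enterocyte genes Fabp2 and Sis were at 11013.7 to 12925.3 and 9592.4 to 10479.0 over all 10 arrays. The 5 measured pancreatic markers lay between 10.9 and 81.1. Of the 6 measured colonic markers, Car1, Aqp8, Best2 and Hoxb13 lay between 11.9 and 41.8, Aqp4 between 50.4 and 228.4, and Slc26a3, which the small intestine also expresses, between 2357.1 and 3421.5. Two-sided limma tests were run over all 22180 genes with Benjamini-Hochberg adjustment, and a gene was called at an adjusted p under 0.05. By that rule 0.343% of all genes were called.

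None of the 9 goblet cell and mucus genes was called (0 of 9). Their values were mostly lower in Fed Knockout, at 7 of 9 genes, against 50.1% of all genes. The 2 exceptions were Agr2 and Spink4. The median difference of the 9 genes was -0.26 on the log2 scale, against -0.000354 over all genes, and single genes ran from -0.61 (Sytl2) to 0.52 (Spink4). At an unadjusted limma p under 0.05 there were 6 of the 9, all lower, against 12.1% of all genes in either direction and 6.25% in the lower direction. For 3 genes, Sytl2, Fcgbp and Atoh1, the Fed Knockout arrays lay below all Fed Control arrays, which held for 1.56% of all genes. The 9 genes share cells and arrays, so these counts are not 9 independent observations. In whole tissue, fewer goblet cells and less RNA per goblet cell cannot be told apart.

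**Figure D1:**
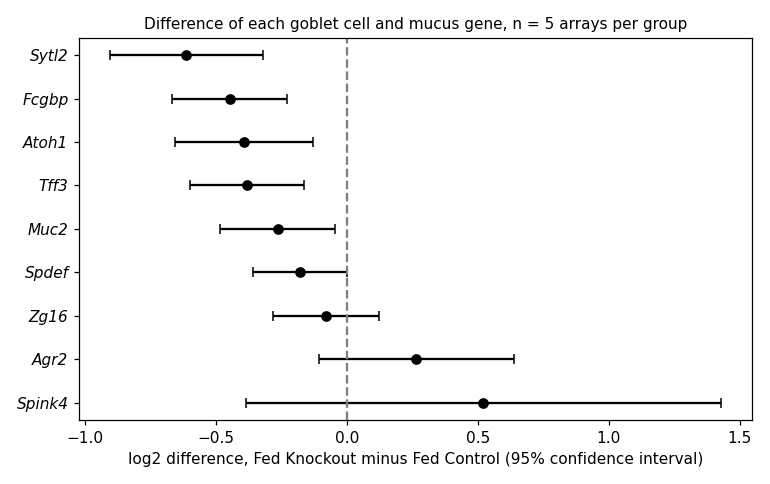
The log2 difference, Fed Knockout minus Fed Control (x axis), is plotted for each of the 9 genes as a point with its 95% confidence interval (limma, n = 5 arrays per group). Intervals of 6 genes lie below 0, that of Zg16 crosses 0, and those of Agr2 and Spink4 cross 0 from the higher side, with Spink4 the widest.

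Atoh1 encodes the basic helix-loop-helix factor that starts the secretory lineage. Its intensity was 199.6, 263.9, 268.1, 273.8 and 211.2 on Fed Knockout arrays 1 to 5, and 385.4, 310.6, 285.2, 328.2 and 283.4 on Fed Control arrays 1 to 5. The highest knockout array, 273.8, stayed below the lowest control array, 283.4, by a narrow gap. The difference was -0.39 on the log2 scale (SE 0.12, 95% confidence interval -0.65 to -0.13), a level 76.2% of control, with a limma adjusted p of 0.211. A two-sided exact permutation test of this gene alone gave p = 0.00794, the smallest that the 252 assignments of the arrays allow.

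Spdef encodes an ETS factor needed for goblet cell maturation. Fed Knockout arrays read 125.3, 150.2, 143.2, 124.2 and 131.6, and Fed Control arrays read 156.4, 153.6, 142.4, 149.5 and 160.0. Knockouts 2 and 3 fell within the control range and the other 3 lay below it. At -0.18 on the log2 scale (SE 0.08, limma adjusted p = 0.413) the difference was smaller than that of Atoh1, and its interval, -0.36 to -0.000354, ended just below 0.

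Muc2 encodes the mucin that forms the gel itself. Its brightest probe set read 6113.5, 7981.9, 8205.8, 6664.2 and 6668.2 on Fed Knockout arrays, and 9358.2, 8314.5, 7896.3, 9044.8 and 8004.1 on Fed Control arrays. Knockouts 1, 4 and 5 lay below every control, while knockouts 2 and 3 were level with the lower controls. The mean was 83.3% of control (log2 difference -0.26, SE 0.10, limma adjusted p = 0.321, exact permutation p = 0.0397). The second Muc2 probe set showed -0.28 (SE 0.13), close to the first.

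Fcgbp encodes a large protein with von Willebrand D domains that is secreted with MUC2 and bound to it in mucus. Here the groups stood furthest apart relative to the spread of the controls. Fed Knockout arrays read 4661.7, 4510.2, 5011.9, 3618.2 and 3744.0, against 5985.7, 5808.5, 5785.1, 6034.3 and 5537.7 on Fed Control arrays. Every knockout lay below every control, and the controls differed little, with an SD of 0.05 on the log2 scale against 0.21 in knockouts (n = 5 each). The level was 73.4% of control (63.1% to 85.3%), a log2 difference of -0.45 (SE 0.10), with a limma adjusted p of 0.0867, which misses the threshold, and an exact permutation p of 0.00794.

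The promoters of Muc2 and Fcgbp, both lower in value, and of Agr2, which was not lower, are shown for the E-box CAGCTG, of the kind bound by ATOH1. Each stretch holds the 250 bases before the gene's start, 5′ to 3′ on the plus strand, from RefSeq on GRCm38.p6, with any CAGCTG in capitals. Muc2 is taken from chr7:141690090-141690339, Fcgbp from chr7:28070986-28071235 and Agr2 from chr12:35992675-35992924.
Muc2: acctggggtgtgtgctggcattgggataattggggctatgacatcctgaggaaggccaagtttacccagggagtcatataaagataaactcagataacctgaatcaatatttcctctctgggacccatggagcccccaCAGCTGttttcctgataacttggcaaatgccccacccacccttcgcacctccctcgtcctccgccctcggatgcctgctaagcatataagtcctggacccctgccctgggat
Fcgbp: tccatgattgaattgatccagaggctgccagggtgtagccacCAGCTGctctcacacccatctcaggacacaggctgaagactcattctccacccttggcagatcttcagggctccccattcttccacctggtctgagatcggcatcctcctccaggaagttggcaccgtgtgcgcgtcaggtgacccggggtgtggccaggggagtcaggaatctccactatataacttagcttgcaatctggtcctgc
Agr2: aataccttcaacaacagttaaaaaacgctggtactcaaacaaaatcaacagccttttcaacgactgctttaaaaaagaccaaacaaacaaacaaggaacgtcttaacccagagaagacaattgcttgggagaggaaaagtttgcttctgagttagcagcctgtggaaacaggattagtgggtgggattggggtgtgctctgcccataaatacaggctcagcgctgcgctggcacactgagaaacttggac
The E-box starts 112 bases before the Muc2 start and 208 bases before the Fcgbp start, and these letters are not in the Agr2 window. RefSeq promoters were at hand for 5 of the 9 genes (Muc2, Fcgbp, Agr2, Spdef and Atoh1). CAGCTG, which reads the same on both strands, was in 2 of these 5 and in 13.0% of 32851 promoters of the same length. Spdef and Atoh1 also had lower values and, like Agr2, held no CAGCTG in their windows. The Spdef window, chr17:27728952-27729201 on the minus strand, lies inside the gene as annotated, which runs from 27714446 to 27731003. On either strand, CCGGAT (an ETS site of the kind preferred by SPDEF) was in 0 of 5 and 4.94% of all, TGTTTAC (forkhead) in 0 of 5 and 3.17%, and TTTATNG (CDX) in 1 of 5, Agr2, and 9.81%. These are matches of letters and not measured binding.

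Zg16 encodes a lectin-like protein that is packed in the granules and binds bacteria in the mucus. It read 6031.3, 6518.0, 6079.3, 5732.2 and 5648.9 on Fed Knockout arrays, and 6750.0, 6909.4, 6236.3, 6702.4 and 5246.4 on Fed Control arrays. Control 5 was the lowest of all 10 arrays, and the groups overlapped. The difference was -0.08 (SE 0.09, limma adjusted p = 0.794), with an interval of -0.28 to 0.12 on the log2 scale, so a level below 82.3% of control lies outside it. Without control 5 the difference was -0.15 and without control 2 it was -0.05.

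Tff3 encodes a trefoil peptide secreted with the mucin and known for its part in epithelial repair. Fed Knockout arrays read 1592.1, 1673.1, 1916.0, 1390.0 and 1464.3, and Fed Control arrays 2192.9, 1913.5, 1976.7, 2289.7 and 2044.7. Only knockout 3 reached the lowest control, and by a margin of a few intensity units. The log2 difference was -0.38 (SE 0.10, interval -0.60 to -0.16), a level 76.8% of control. It was not called (limma adjusted p = 0.134), and the exact permutation p was 0.0159.

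Spink4 encodes a secreted protein with a Kazal-type domain that is made in goblet cells. It varied more than any other of the 9 genes in both groups. Intensities were 1135.7, 1879.2, 1685.8, 2103.6 and 971.3 on Fed Knockout arrays, and 1407.3, 1012.2, 2299.7, 1130.1 and 326.1 on Fed Control arrays. Control 3 was the highest and control 5 the lowest of all 10. The SD was 0.48 in knockouts and 1.04 in controls on the log2 scale, against medians over all genes of 0.17 and 0.18. The difference of 0.52 (SE 0.42, limma adjusted p = 0.688) had an interval from -0.39 to 1.43. It was 0.10 without control 5 and 0.81 without control 3. Markers of Paneth cells, which lie at the crypt base, moved with it: control 5 also had the lowest mean of the 8 measured Paneth markers, -2.18 on the log2 scale relative to each gene's mean, and control 3 the highest, 0.85. With the mean of the crypt markers (Paneth, stem cell and proliferation) as a covariate, the Spink4 difference was 0.17 (limma adjusted p = 0.545).

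Agr2 encodes a protein disulfide isomerase of the endoplasmic reticulum (ER) that is needed for MUC2 production in the mouse gut. Fed Knockout arrays read 2147.3, 3319.1, 2845.2, 2812.0 and 1650.3, and Fed Control arrays 2122.5, 2178.1, 2394.4, 2003.7 and 1692.2. Knockouts 2, 3 and 4 lay above all controls, knockout 1 lay within them, and knockout 5 was the lowest of all 10 arrays. The difference was 0.27 (SE 0.17, limma adjusted p = 0.588, interval -0.11 to 0.64). It was 0.41 without knockout 5, 0.16 without knockout 2 and 0.16 with the crypt marker covariate. Relative to Muc2 on the same array, Agr2 was 1.44-fold higher in Fed Knockout, with overlapping groups. That ratio was picked after its values were seen and was not tested.

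Sytl2 encodes a synaptotagmin-like protein that binds the small GTPase RAB27 and takes part in docking secretory granules at the membrane. Of the 9 genes it had the lowest log2 difference. Fed Knockout arrays read 187.1, 257.0, 252.8, 212.1 and 184.6, and Fed Control arrays 398.5, 357.7, 331.1, 327.0 and 257.6. The groups did not overlap, although knockout 2 (257.0) and control 5 (257.6) almost met. The level was 65.4% of control (53.4% to 80.1%), a log2 difference of -0.61 (SE 0.13), with a limma adjusted p of 0.0841 and an exact permutation p of 0.00794. It passed at an adjusted p of 0.0456 without knockout 1 and control 5 together, and at 0.0268 with the crypt marker covariate. Over all 21 other settings at the same threshold its adjusted p ran from 0.0268 to 0.310.

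**Figure D2:**
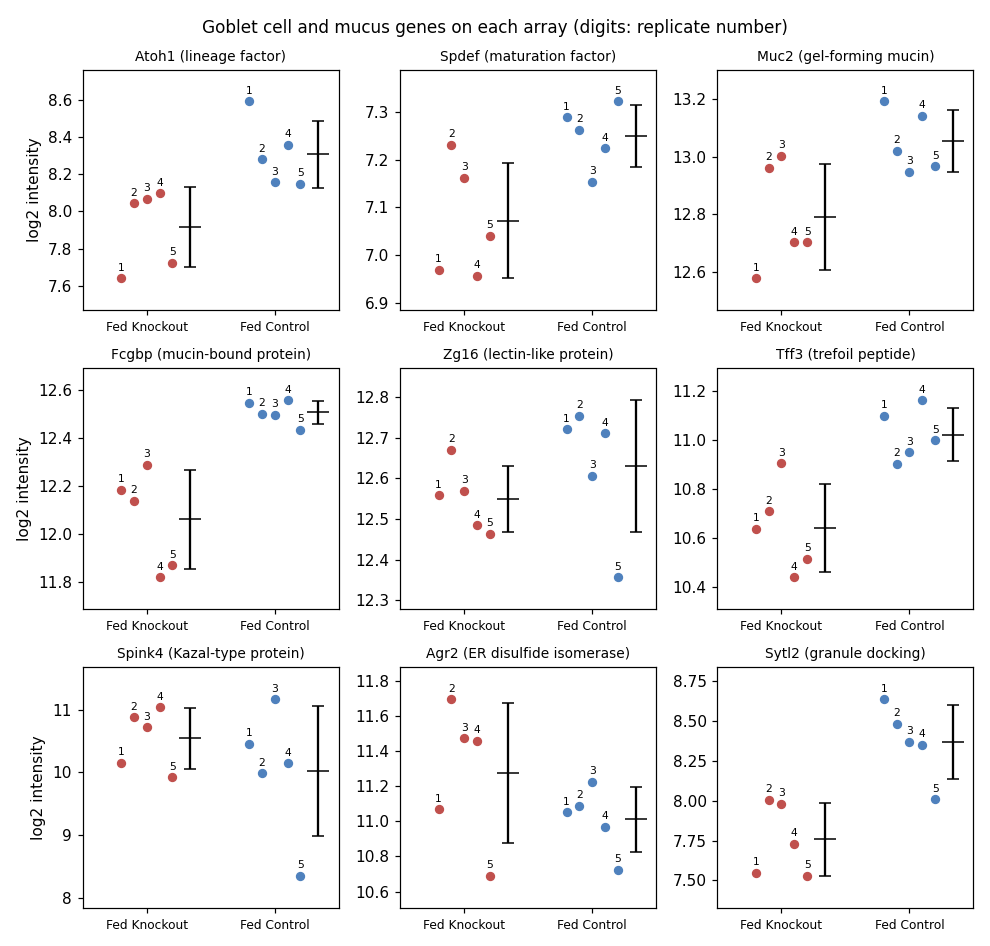
Log2 intensity (y axis, a scale of its own for each gene) is shown for every array of Fed Knockout (left, red) and Fed Control (right, blue), with replicate numbers beside the points and the mean ± SD (n = 5) beside each group. The groups are apart in Atoh1, Fcgbp and Sytl2, nearly so in Tff3, and overlap in Spdef, Muc2, Zg16, Spink4 and Agr2.

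Most of the 9 genes varied together from array to array, beyond the difference between the groups, and Spdef did so least. After each group's mean was subtracted, 35 of 36 pairs of genes had a positive Pearson correlation over the 10 arrays, with a median of 0.48 and a range from -0.23 (Spdef with Spink4) to 0.85 (Fcgbp with Tff3). Over the control arrays alone, Spdef was at -0.81 with Spink4 and -0.78 with Agr2, but at 0.24 with Muc2 and 0.26 with Atoh1. Over the knockout arrays the first of these pairs was at 0.31 and the second at 0.54. These arrays share the tissue content of each piece, so the correlations are given as a description, without a count for other genes beside them. Knockouts 1 and 5 were below the gene's mean over the 10 arrays in all 9 genes (0 of 9 above). Control 5 was the lowest control in 6 of 9 genes, but not in Spdef, where it was the highest. The mean departure of the 9 genes was -0.33 to 0.10 on Fed Knockout arrays and -0.23 to 0.24 on Fed Control arrays, so the groups overlapped.

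**Figure D3:**
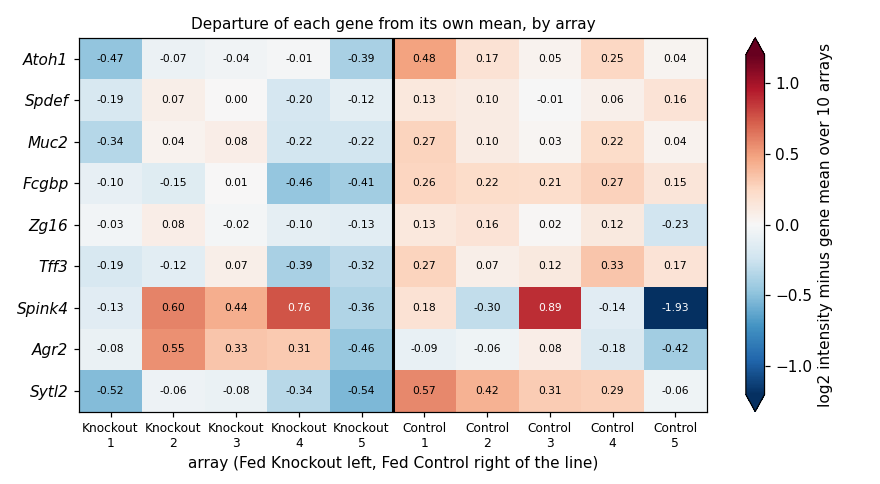
Each cell gives a gene's log2 intensity minus its own mean over the 10 arrays (colour and printed value), with Fed Knockout arrays left of the line and Fed Control arrays right of it. Knockouts 1 and 5 are below the mean in every row, the colour scale is capped, and Spink4 on control 5 (-1.93) lies beyond it.

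Genes outside the list that followed it most closely were found by their correlation with the mean of the 9 genes over the 10 arrays, again with group means subtracted. The first 6 were 2700062C07Rik (r = 0.98), Dynlrb1 (0.98), Mlph (0.96), Foxa3 (0.94), Svs1 (0.94) and Phtf2 (0.94). They were picked as the highest over all genes outside the list, so the size of r is not a test. 2700062C07Rik (18.5 to 33.2), Svs1 (14.2 to 22.2) and Phtf2 (39.7 to 55.8) were dim, within the intensity range of the pancreatic markers. Mlph, Foxa3 and Dynlrb1 were brighter. Mlph encodes melanophilin, another RAB27-binding protein, Foxa3 a forkhead factor of endodermal tissues, and Dynlrb1 a dynein light chain. Between the groups these 6 differed little, from 0.01 (Phtf2) to 0.17 (2700062C07Rik) on the log2 scale, with limma adjusted p from 0.613 to 0.982. Without the 2 arrays farthest from the median of the profile, control 5 and knockout 5, their correlations were 0.80 to 0.95. The mean profile leans on the most variable gene, Spink4. When every gene was given the same weight, a choice made after seeing the data, 2 of the 6 (2700062C07Rik and Dynlrb1) were again among the first 6.

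Other genes of the goblet cell and its mucus did not share 1 direction. For each list and marker set below, the shares over all genes are 0.343% called and 50.1% lower in value. Of 24 further goblet cell genes, 1 rose and 0 fell, 23 did not pass, and their median difference was 0.03, with 13 higher and 11 lower values. Their differences ran from -0.70 to 0.64. At an unadjusted limma p under 0.05, 3 of them were higher and 4 lower, against 12.1% of all genes in either direction. Gcnt3, a glycosyltransferase that builds branched mucin glycans, rose by 0.56 on the log2 scale (SE 0.09, limma adjusted p = 0.0289). Its intensities were 464.3, 448.5, 411.9, 485.7 and 408.5 on Fed Knockout arrays, against 325.0, 316.9, 286.7, 325.2 and 256.9 on Fed Control arrays. Every knockout lay above every control, which held for 267 of all 22180 genes. Groups were apart in either direction in 2.77% of all genes. That call was kept in 9 of 21 other settings, with adjusted p from 0.0210 to 0.273. The next by p were Tpsg1, a tryptase (-0.47, SE 0.12), and B3gnt6, which makes the core of another mucin glycan (0.64, SE 0.17), with adjusted p of 0.132 and 0.134. The further goblet genes Clca1 (-0.25, SE 0.15), Tff1 (0.06), Tff2 (0.17) and Retnlb (0.03) are named after their values were seen, and none of these 4 passed.

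In the list of granule docking and release, 0 of 18 genes passed, against 0.343% of all genes. Lower values were found for 16, against 50.1% of all genes, with a median of -0.14. Sytl3, of the same family as Sytl2, was at -0.38 (SE 0.10, limma adjusted p = 0.132). Its Fed Knockout arrays all lay below its Fed Control arrays, as in 1.56% of all genes. Rab27b and Rab27a, the GTPases to which these proteins bind, were at -0.33 (SE 0.12) and -0.32 (SE 0.11), with adjusted p of 0.272 and 0.279. Immune cells also use RAB27A and SYTL3 in granule release. Of the 8 measured immune markers, 6 were lower and 2 higher in value, and the general leukocyte marker Ptprc was at -0.33 (SE 0.21). The T cell markers Cd3e and Cd8a were at -0.76 (SE 0.26) and -0.79 (SE 0.23), larger in size than Sytl3 and the Rab27 genes, and the myeloid marker Itgam was at 0.33 (SE 0.14), with 0 of 8 past the test. The list had a median of -0.09, with array means of -0.44 to 0.21 in Fed Knockout and -0.62 to 0.47 in Fed Control. The part of immune cells in these values was not tested.

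The list of mucin folding and processing genes had 10 higher and 10 lower values among 20, and 0 passed. Most are folding genes of the ER that serve all secreting cells. The list also holds Mep1b, Tgm2 and Tgm3, which are not ER folding genes. Agr3, the neighbour of Agr2 in the genome and of the same family, stood at -0.71 (SE 0.17, limma adjusted p = 0.0994), the opposite sign to Agr2. It was dim, at 18.3 to 24.2 in Fed Knockout and 24.3 to 48.3 in Fed Control. It passed in 2 of 20 other settings, without knockout 1 and control 5 together (-0.88, adjusted p = 0.0373) and with the crypt marker covariate (-0.79, adjusted p = 0.0396). Ero1a, an oxidase that supplies disulfide bonds, was at 0.40 (SE 0.11, adjusted p = 0.170). Kdelr3, a receptor that returns proteins to the ER, was at -1.05 (SE 0.31, adjusted p = 0.196), and its knockout 1 array read 417.8 while the other 4 knockouts read 127.7 to 161.9. It was at -1.36 without knockout 1 (adjusted p = 0.0128) and at -0.28 with the mean of the ileum markers as a covariate.

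Among 25 factors of the secretory lineage and the Notch pathway, 0 passed, with 8 higher and 17 lower values and a median of -0.05. The smallest p belonged to Pou2f3, the tuft cell factor (-0.41, SE 0.14), Elf3, an epithelial ETS factor (0.36, SE 0.13), and the receptor gene Notch1 (-0.24, SE 0.10), with limma adjusted p from 0.272 to 0.377. Membrane mucins, which are anchored at the cell surface, also had 0 of 9 past the test, and their differences ran only from -0.19 to 0.17. The members with the smallest p were Muc1 (-0.13, SE 0.09), Muc15 (-0.19, SE 0.18) and Muc4 (0.17, SE 0.20).

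**Figure D4:**
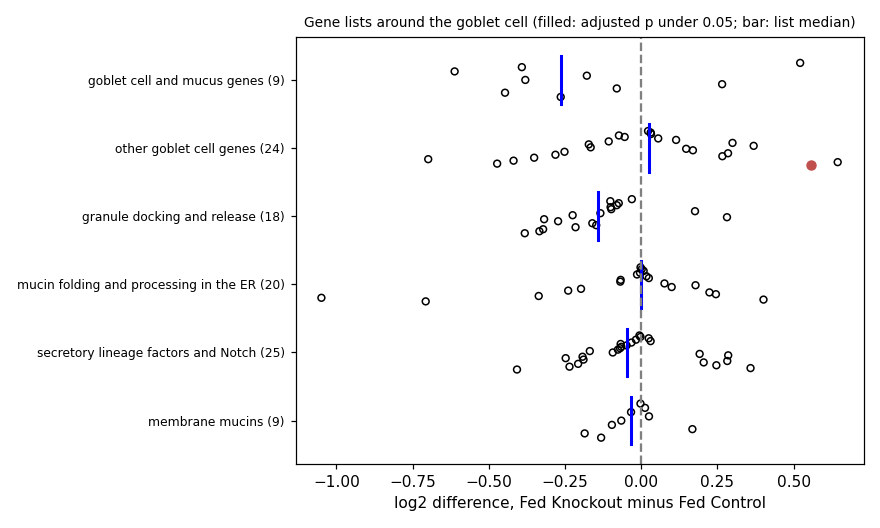
Each point is 1 gene's log2 difference, Fed Knockout minus Fed Control (x axis), by list, with the number of measured genes in brackets, filled where the adjusted p was under 0.05 and with a bar at the list's median. The 9 goblet cell and mucus genes have a median of -0.26, the other lists have medians between -0.14 and 0.03, and Gcnt3 is the filled point.

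Markers of other secretory cells and of gut regions were set beside these values. The 10 enteroendocrine markers were all lower in value (2 fell past the test), with array means of -0.44 to -0.04 in Fed Knockout and 0.06 to 0.34 in Fed Control. Of 8 tuft cell markers, 7 were lower (1 fell), at -0.30 to -0.04 and 0.05 to 0.30. Ileum markers ran from -1.16 (knockout 1) to 1.21 (knockout 5) in Fed Knockout, against -0.79 to -0.09 in Fed Control. Of the 7 measured, 0 passed and 6 were higher in value, from 0.19 (Osr2) to 3.89 (Fabp6, SE 0.97), while Cubn was at -0.84 (SE 0.19). Slc10a2 was at 2.23 (SE 0.82) and Fgf15 at 1.16 (SE 0.26). Of 8 markers of the proximal intestine, 0 passed, 7 were lower and 1 higher in value, with a median of -0.22. Per the labels, every piece came from the middle of the small intestine. Goblet cells become more frequent towards the distal gut. With the ileum marker mean as a covariate, the differences were -0.74 for Sytl2, -0.52 for Atoh1, -0.37 for Muc2, -0.36 for Fcgbp, -0.35 for Tff3, -0.24 for Spdef, -0.11 for Zg16, 0.16 for Agr2 and 0.29 for Spink4. The median of the 9 genes was then -0.35, and 0 were called, with limma adjusted p from 0.310 (Sytl2) to 0.946 (Spink4) and 0.578 for Fcgbp. This covariate largely follows the groups, since knockouts 2 to 5 lay above all controls on it and only knockout 1 lay below. The fit can therefore hardly separate group from ileum marker level, and its differences lean on knockout 1. Proliferation markers, which are part of the crypt marker covariate, had a median of 0.59, with 8 of 9 higher in value and 0 past the test. Their array means overlapped, at -0.44 to 0.70 in Fed Knockout and -0.80 to 0.41 in Fed Control. How far the crypt marker covariate follows the groups was not tested.

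**Figure D5:**
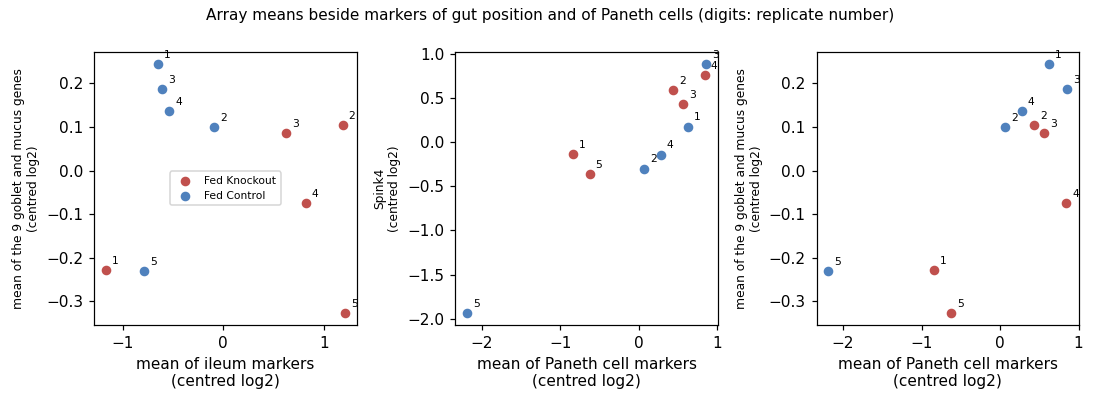
Each point is 1 array (red Fed Knockout, blue Fed Control, digits the replicate number), as departures from gene means on the log2 scale: the mean of the 9 genes against the ileum markers (left), Spink4 against the Paneth cell markers (middle) and the mean of the 9 genes against the Paneth cell markers (right). Knockouts 2 to 5 lie right of all controls on the ileum axis while knockout 1 lies left of them, and control 5 is lowest on the Paneth axis (-2.18).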

How the data were processed

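Transcripts of the mouse jejunum were measured on 10 Affymetrix arrays, 5 per group, with groups taken from the sample titles. Per the labels' protocols, 400 ng of total RNA was labelled with the WT Plus kit, and per the submitters' processing notes the authors used Affymetrix Expression Console 1.4.1.46 and RMA, which corrects background, aligns the arrays' distributions and summarises probes. The authors' deposited intensities are linear (array medians 45.8 to 48.1). Because RMA aligns the arrays, a change common to most genes cannot be seen. Detection calls were not used here. Precision is limited by the number of arrays.

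Of 41345 probe sets, 23521 carried 1 gene symbol in GEO's platform annotation. Per gene the probe set with the highest mean over the 10 arrays was kept, which left 22180 genes. Log2 was taken, and Fed Knockout was compared with Fed Control in limma 3.58.1 (R 4.3.3; lmFit and eBayes, group as the only term), a test checked on simulated data. Named genes are Pcyt1a, the 9 genes of the list, up to 3 genes with the smallest p of each further list, and the 6 genes most like the 9. The members and lists were chosen with earlier results of these data known. Of 102 genes in the further lists, 96 were measured. Alternatives covered scaling, dim genes, probe sets, the variance model, weights, a replicate block, omitted arrays, covariates and the threshold.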

Additional observations from a re-analysis of the deposited data

Results flagged for a closer look

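Kdelr3, the ER retrieval receptor gene, had an array far from the others of its group: knockout 1 read 417.8, the nearest knockout read 161.9, and the gap was 0.800 of the group's log2 range, above Dixon's 95% limit for 5 samples. Among 50 groups of arrays checked this was the single case. Chance alone passes this limit in about 1 of every 20 groups, so 1 case is no excess.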

How the results depend on the processing

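All 9 genes kept the sign of their difference in the 21 settings that changed the fit, and 187 of 189 results also stayed on the same side of the threshold. The exceptions were both Sytl2, called without knockout 1 and control 5 together (-0.65) and with the crypt marker covariate (-0.68), so that 1 of the 9 genes was called in each of these settings. At a threshold of 0.1, 2 of the 9 were called, Sytl2 and Fcgbp. The median difference of the 9 genes ran from -0.35 to -0.21. The number of genes called over the whole array, 76, depended far more on the setting: it was 39 over all probe sets, 142 with array weights, 186 without knockout 1 and control 5 together, 4 with the ileum covariate, 183 with the crypt covariate and 261 at a threshold of 0.1. With 1 array left out it ran from 11 (without knockout 2) to 268 (without knockout 1). With the replicate number as a block it was 27, and 0 of the 9 genes were called. Same-numbered arrays did not deviate together (correlations of -0.13 to 0.12, and 0 of 5 knockout arrays matched best with their own number). So few correlations cannot exclude a pairing, and the labels do not say whether equal numbers mark one. The cause of these shifts was not tested. Agr3, Muc1 and Muc15 had no value once the dimmest 30% of genes were left out.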
